A study of Mus musculus with 4 samples.

Results

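The serpins are a family of proteins that mostly inhibit serine proteases, and 62 protein-coding genes of the family were followed here in 4 mouse libraries. They are the protein-coding rows whose symbol is Serpin, a clade letter from a to i and a member number, among 78028 rows in all and 19870 protein-coding rows. The libraries, called 1 to 4 after the replicate numbers of the labels, came from 4 separately grown cultures of E14TG2a, an embryonic stem cell line of the mouse, each taken through the advanced hepatic-inducing cocktail (A-HIC) and labelled hepatocyte-like cells. They form a single group, without an untreated culture or another time, so no contrast between conditions exists and every value is a level or a spread between cultures. The stated purpose was to assess how hepatic and how mature the cells were.

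An inhibitory serpin presents an exposed loop as bait, and once a protease cuts it the serpin changes shape and traps the enzyme in a covalent complex that cell-surface receptors then clear. Some members have lost this activity and carry hormones or assist folding. The adult liver is the main source of the serpins of blood plasma, most of them in clade A, while clade B members lack a classical signal peptide and act largely inside cells. In the mouse, both clades have grown by tandem duplication, so that many genes have close copies beside them.

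Libraries 1 to 4 held 37797816, 40154964, 29518642 and 40124479 counts. The label was checked against markers. All 8 listed pluripotency genes were at or above 1 TPM, the transcript level scaled for gene length and library size, in every library, whereas 2 of 10 listed hepatocyte genes were, and the hepatocyte enzymes Cyp3a11, Tat and Hpd had 3 counts or fewer in every library. The hepatocyte list summed to 9.86, 83.9, 12.9 and 33.8 TPM in libraries 1 to 4. All 12 parietal endoderm genes were at 1 TPM or more, and they summed to 3242, 10393, 3941 and 7947 TPM. All 8 visceral endoderm genes were as well, and they summed to 991, 1021, 1030 and 957 TPM. Of 8 trophoblast genes 6 were, and the list summed to 197, 185, 198 and 267 TPM. The fibroblast list summed to 1591, 3522, 1369 and 2457 TPM. The marker levels do not match the name hepatocyte-like, which is used here for the label alone. The lists overlap with other genes described here: Col4a1, Col4a2, Thbd and Plat are among the parietal endoderm markers, and Col1a1, Col1a2 and Col3a1 among the fibroblast markers. RNA of the whole culture was measured, so fewer cells of a type and less RNA per cell cannot be told apart in anything that follows.

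A minority of the serpins were expressed. Of the 62 genes, 23 (37.1%) stood at 1 TPM or more in every library, against 63.5% of all protein-coding rows. Another 23 had 3 counts or fewer in every library, against 16.7% of all protein-coding rows, and 16 of those had no count at all. A count of 0 allows up to 3 counts, which is 0.0747 to 0.102 CPM, counts scaled to the library's total, in these libraries, or 0.149 to 0.203 CPM if both ends of a fragment were counted. The remaining 16 lay between. The median level was -2.29 over the 62 genes and 2.92 over all protein-coding rows, on the scale log2(TPM + 0.1).

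A few genes held most of the family's transcripts. Together the 62 genes took 0.166%, 0.223%, 0.150% and 0.232% of all counts in libraries 1 to 4, a mean of 0.193% ± 0.0408 (SD, n = 4). Serpinh1 and Serpina3n made up 63.3% ± 6.20 of the family's TPM. The first is the collagen chaperone of the endoplasmic reticulum and the other a secreted protease inhibitor, and they lie on different chromosomes. Expression was found in clades A, B, E, F, G, H and I, whereas the single genes of clades C and D did not reach 1 TPM in every library.

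**Figure D1:**
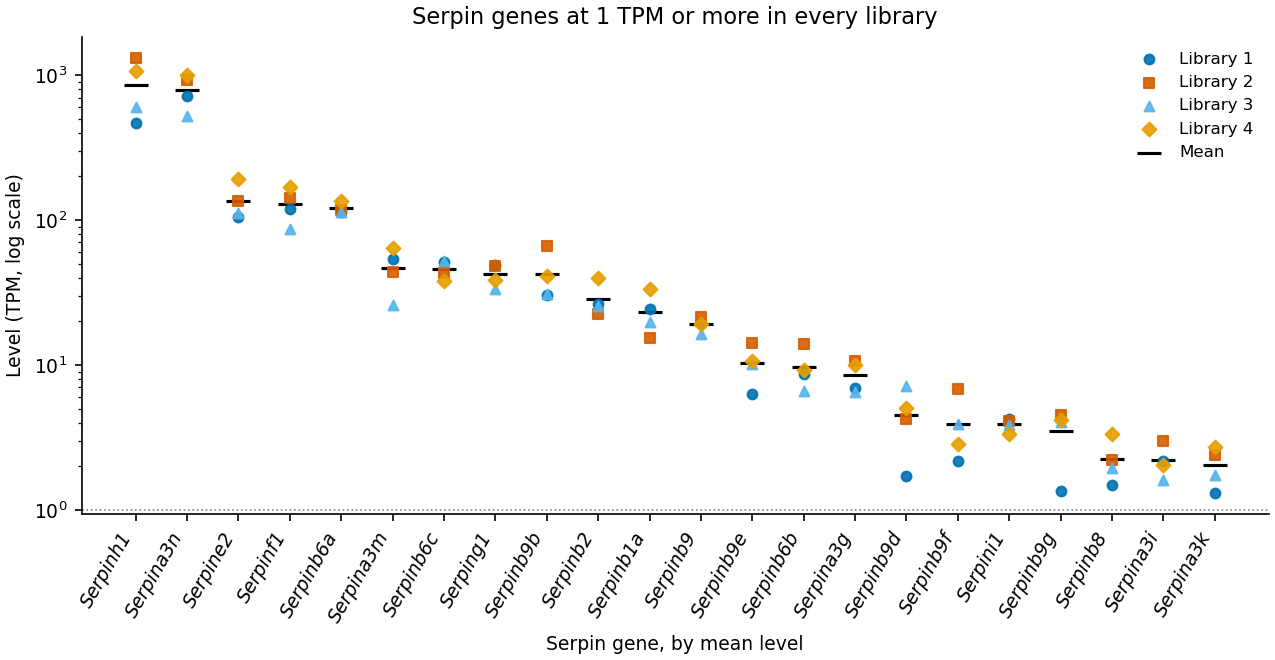
Level of serpin genes with 1 TPM or more in every library, on a log axis, with 1 such gene not shown. Points are the 4 libraries, bars their mean and the dotted line 1 TPM; means run between 858 TPM for Serpinh1 and 2.04 TPM for Serpina3k.

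The most abundant serpin by mean TPM was Serpinh1, which encodes the collagen chaperone Hsp47 and inhibits no protease. It stood at 468, 1302, 598 and 1065 TPM in libraries 1 to 4, a mean of 858 ± 391 TPM (SD, n = 4). Libraries 2 and 4 were high and libraries 1 and 3 low, with a highest library 2.79 times the lowest. It exceeded Serpina3n in libraries 2, 3 and 4 and was 0.649 times Serpina3n in library 1. It ranked 100th by mean TPM among protein-coding rows. The order of the libraries was also that of the summed parietal endoderm markers and of the summed hepatocyte markers given above. The visceral endoderm markers had another order. The summed fibroblast markers were also higher in libraries 2 and 4, with library 3 lowest. The part of any of these cell types in the level was not tested.

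Serpinh1 binds newly made collagen chains in the endoplasmic reticulum, and the listed chains and enzymes of collagen folding were all present. All 25 genes listed for this step were expressed, against 63.5% of all protein-coding rows. The median of the 25 was 7.70 on the log2(TPM + 0.1) scale. The list also holds Kdelr1, Kdelr2, Kdelr3, Mia3 and Hsf1, which are neither chains nor enzymes. P4hb, a subunit of prolyl 4-hydroxylase, stood at 1301, 2010, 1363 and 1801 TPM. The collagen chains Col4a1 and Col1a1 stood at 629, 2508, 855 and 2021 TPM and at 905, 1772, 770 and 1249.9 TPM, and each exceeded Serpinh1 in all 4 libraries. Of the 25 genes, 20 had their highest level in library 2 and 3 in library 4. Of all protein-coding rows with a mean of 1 CPM or more, 32.5% and 22.6% did so. The collagen list summed to 5821, 12704, 6051 and 10235 TPM, so the libraries stood in the same order for the chaperone and for the summed list. Hsf1, the heat shock factor known to drive Serpinh1 transcription under heat shock, stood at 18.7, 18.4, 20.9 and 19.5 TPM. The activity of the factor was not measured, and its part in the Serpinh1 level was not tested.

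Secreted serpins of the liver ranged from abundant to undetected. Of 17 serpins listed as liver-secreted, 5 were expressed, 5 had 3 counts or fewer in every library and 7 lay between. In the whole family 37.1% were expressed and 37.1% not detected, against 63.5% and 16.7% of all protein-coding rows. Their median level was -2.42 on the log2(TPM + 0.1) scale, close to that of the whole family. The 5 expressed genes were Serpina3n, Serpina3m, Serpina3k, Serpinf1 and Serping1.

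Serpina3n, a mouse relative of human alpha-1-antichymotrypsin and an acute-phase inhibitor, was the second most abundant serpin. It had 720.5, 931, 519 and 999 TPM in libraries 1 to 4, a mean of 792 ± 218 TPM (SD, n = 4), and ranked 116th among protein-coding rows. Libraries 2 and 4 were again above libraries 1 and 3, but here library 4 was highest. Serpina3m, its neighbour in the cluster, stood at 53.6, 43.7, 26.02 and 64.5 TPM, and Serpina3k, known as a kallikrein-binding protein, at 1.32, 2.39, 1.73 and 2.71 TPM. Serpina3n exceeded Serpina3m by 13.4 to 21.3 times within a library.

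Serpinf1 encodes pigment epithelium-derived factor, a secreted serpin without protease inhibition that restrains vessel growth. It stood at 119, 142, 86.2 and 169.9 TPM, a mean of 129 ± 35.4 TPM (SD, n = 4). Its libraries stood in the same order as those of Serpina3n. Serping1, the inhibitor of the first complement component, stood at 48.6, 48.1, 33.4 and 38.8 TPM, with library 3 lowest. Of its targets, C1s1 and C1ra were lower, and Serping1 was 3.02 to 3.58 times C1s1 in each library. Masp1, another of its targets, was higher, at 59.8, 71.0, 44.1 and 73.4 TPM.

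The listed liver serpins that regulate blood clotting or carry hormones in plasma did not reach 1 TPM in any library. Serpinc1, antithrombin, had 16, 0, 2 and 8 counts in libraries 1 to 4. In the annotation 34.4% of its exon bases also belong to Zbtb37 on the opposite strand, and the libraries keep no strand, so these counts cannot be assigned to Serpinc1. Serpind1, heparin cofactor II, had 2, 12, 0 and 0 counts, Serpinf2, the inhibitor of plasmin, 5, 8, 2 and 8, and Serpina10, which inhibits coagulation factor X, 0, 11, 3 and 2. Serpina6, the corticosteroid carrier, had 0 counts in all 4 libraries, and Serpina7, the thyroxine carrier, had 21, 19, 14 and 12 counts, or 0.471 to 0.831 TPM. Library 2 gave the highest count of Serpind1 and Serpina10, as it did for the summed hepatocyte markers, whose part was not tested. Library 1 gave the highest count of Serpina7 and of the row of Serpinc1, and Serpinf2 had 8 counts in both libraries 2 and 4. Serpina11 had 2 counts in library 4 and none elsewhere.

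The alpha-1-antitrypsin genes, some of which are among the most abundant liver transcripts of the adult mouse, were not expressed. Serpina1a had 5 counts in library 2 and none in the other libraries, Serpina1b had 2, 1, 4 and 0 counts, and Serpina1d had 0, 2, 0 and 1. Serpina1c, Serpina1e and Serpina1f had 0 counts in all 4. The copies Serpina1a to Serpina1e are close to one another: between 49.5% and 92.6% of the 150-base windows of their transcripts occur in a single gene. Reads in the rest could have been dropped or split by the counting. For Serpina1f, which is not among the listed liver-secreted serpins, the share is 100%. All the copies together had at most 8 counts in a library.

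Expressed clade A genes lay together on chromosome 12. In this cluster of 23 clade A genes, 5 were expressed and 12 not detected, against 63.5% and 16.7% of all protein-coding rows. All 5 expressed genes belong to the Serpina3 group at one end, which holds 10 of the genes, and none of the 13 others reached 1 TPM in all libraries. Serpina3n, the last gene, made up 92.9% of the mean TPM of the whole cluster. Inside the Serpina3 group the pattern was broken: Serpina3j, which stands between the expressed genes Serpina3i and Serpina3m, had 0 counts in every library, and so did Serpina3a and Serpina3b. Copies of the Serpina3 group can be told apart by sequence, since at least 99.7% of their 150-base windows occur in a single gene.

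**Figure D2:**
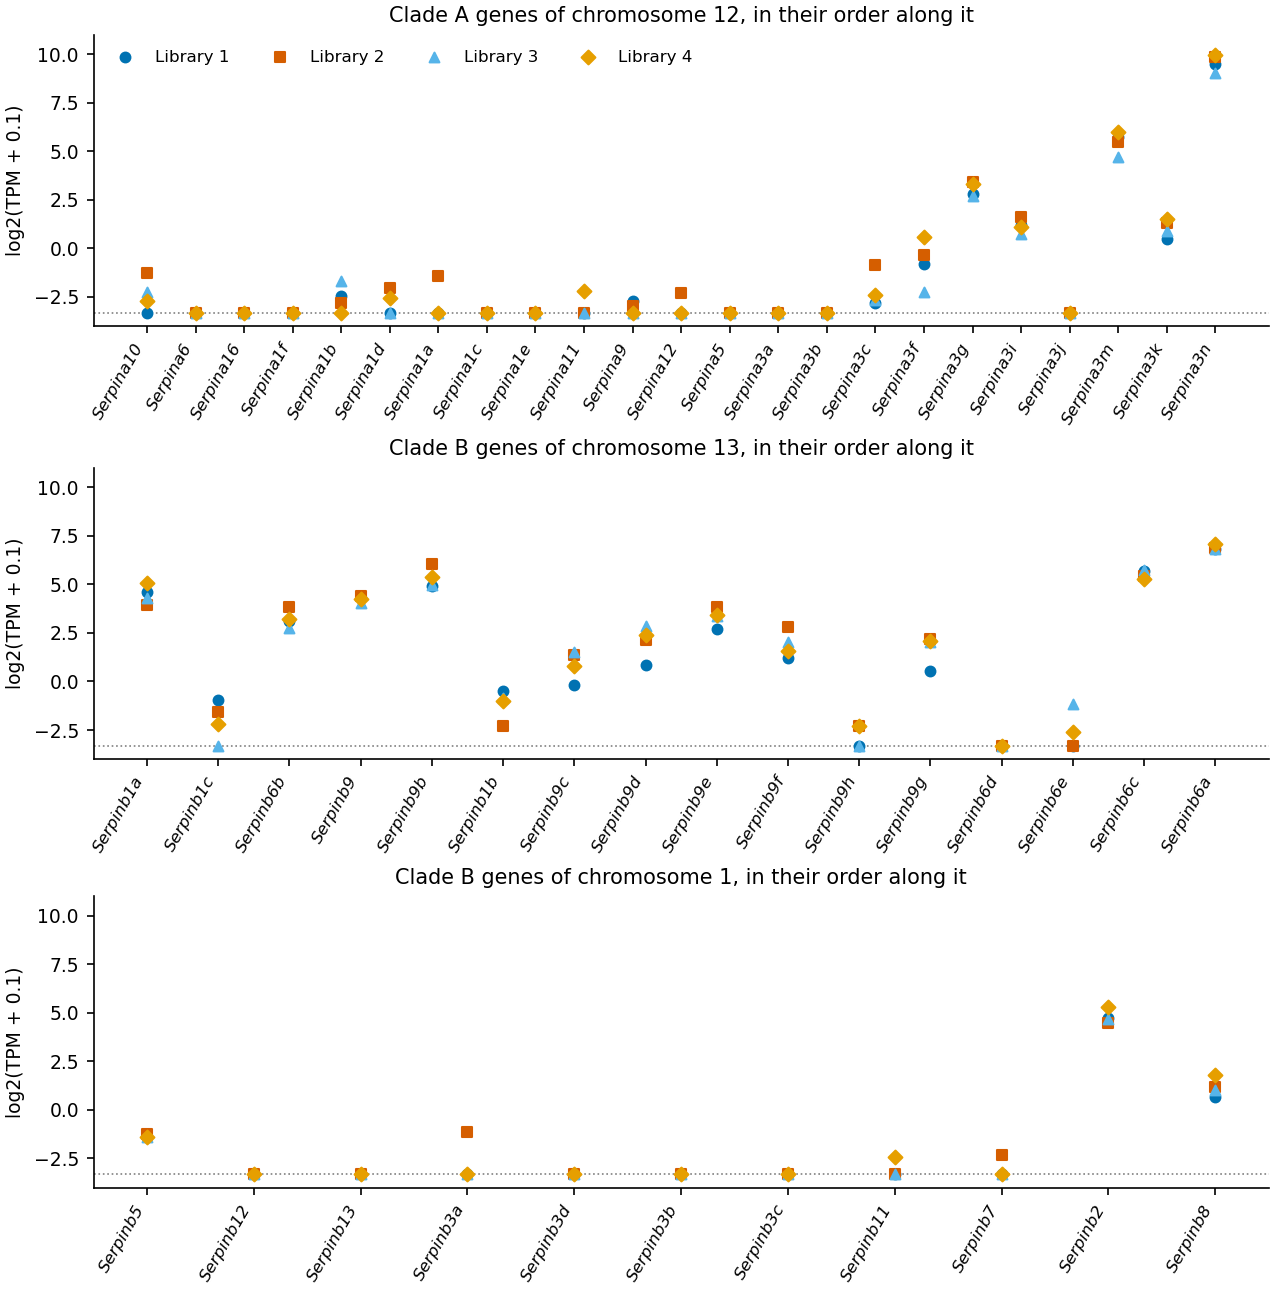
Levels on the scale log2(TPM + 0.1) of the clade A genes of chromosome 12 and the clade B genes of chromosomes 13 and 1, placed in their order along the chromosome (not to scale). Points are the 4 libraries and the dotted line marks 0 counts; the chromosome 12 genes are near that line up to Serpina3c, and Serpina3n is the highest.

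Promoter sequences of this group are shown because neighbours with such different levels come from one duplicated ancestor. They are the 250 bases before the start of the gene, from RefSeq on GRCm38.p6, a reference of the C57BL/6J strain, so the E14TG2a sequence may differ. All lie on the + strand, Serpina3n at chr12:104406458-104406707, Serpina3g at chr12:104235897-104236146, Serpina3i at chr12:104262872-104263121 and Serpina3j at chr12:104314320-104314569. Capitals mark TTCNNNGAA, the letters that STAT factors bind, searched on both strands (the motif is its own reverse complement).
Serpina3n: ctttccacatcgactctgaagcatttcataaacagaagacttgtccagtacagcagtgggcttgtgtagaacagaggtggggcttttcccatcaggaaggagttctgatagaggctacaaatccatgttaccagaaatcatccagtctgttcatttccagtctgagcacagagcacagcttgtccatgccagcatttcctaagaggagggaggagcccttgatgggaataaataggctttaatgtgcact
Serpina3g: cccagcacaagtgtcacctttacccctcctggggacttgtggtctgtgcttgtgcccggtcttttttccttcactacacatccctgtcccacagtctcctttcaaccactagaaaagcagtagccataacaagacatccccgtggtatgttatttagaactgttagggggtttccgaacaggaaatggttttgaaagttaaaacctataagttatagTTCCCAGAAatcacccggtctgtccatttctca
Serpina3i: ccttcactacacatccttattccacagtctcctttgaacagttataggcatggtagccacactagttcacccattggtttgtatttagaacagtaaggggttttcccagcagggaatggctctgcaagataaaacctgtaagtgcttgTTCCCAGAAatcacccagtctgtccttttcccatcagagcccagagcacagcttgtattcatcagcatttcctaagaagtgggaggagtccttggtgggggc
Serpina3j: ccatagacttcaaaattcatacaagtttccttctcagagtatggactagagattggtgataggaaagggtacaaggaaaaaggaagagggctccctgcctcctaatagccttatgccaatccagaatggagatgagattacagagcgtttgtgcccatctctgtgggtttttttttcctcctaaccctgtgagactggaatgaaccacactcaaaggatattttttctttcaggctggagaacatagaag
Serpina3g and Serpina3i, at means of 8.49 and 2.19 TPM, each hold 1 match with the same letters, while Serpina3n and Serpina3j hold none. Serpina3n is most like Serpina3i among these 3 neighbours, with 62.2% identity in a global alignment, against 41.4% for Serpina3g and 47.3% for Serpina3j. Serpina1b, outside the Serpina3 group, gave 45.5% with Serpina3n, near the lower values. The match stands nearer the start in Serpina3g than in Serpina3i, so the printed windows may be offset. A low identity here therefore need not mean that the sequences are unlike. Over the 9 bases of the match in Serpina3i, Serpina3n differs by C151A, counted from the first printed base of Serpina3i. Among the 53 serpins with a promoter in the table, 8 (15.1%) held the motif, against 9.55% of 27025 genes. The search took the 300 bases around the start (250 before, 50 after). Of these 8, 4 were expressed and 2 not detected, while of the 53, 18 were expressed and 20 not detected. Serpina3f, also of the Serpina3 group, held the motif at a mean of 0.673 TPM. A link between motif and level was not tested. A match describes letters and not a binding site.

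Some inhibitors of plasminogen activation were expressed, and so were the activators, while plasminogen itself did not reach 1 TPM. Of 10 genes listed for this step, 7 were expressed, a share near the 63.5% of all protein-coding rows. None of the 7 varied by 2 times or more between libraries, a count near the 12.4% of all protein-coding rows that did. Serpine2, protease nexin 1, which inhibits thrombin and plasminogen activators, stood at 105, 135, 112 and 190.5 TPM, with library 4 highest. Its mean was 136 ± 38.8 TPM (SD, n = 4).

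Both plasminogen activators were expressed, Plat above Plau in every library. Plat, tissue plasminogen activator, stood at 63.0, 98.6, 72.1 and 115.9 TPM, and Plau, urokinase, at 11.99, 16.5, 13.5 and 15.9 TPM. Plaur, the urokinase receptor, stood at 57.7, 79.2, 70.9 and 77.6 TPM. Serpinb2, plasminogen activator inhibitor 2, stood at 26.3, 22.5, 25.5 and 39.5 TPM, and Serpini1, neuroserpin, which inhibits tissue plasminogen activator, at 4.21, 4.12, 3.87 and 3.35 TPM. Plg, the zymogen plasminogen made by the liver, had 0, 6, 2 and 2 counts, and Vtn, vitronectin, an adhesion protein of plasma, 2, 16, 1 and 4. Serpina5, the protein C inhibitor, had 0 counts in all 4 libraries.

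**Figure D3:**
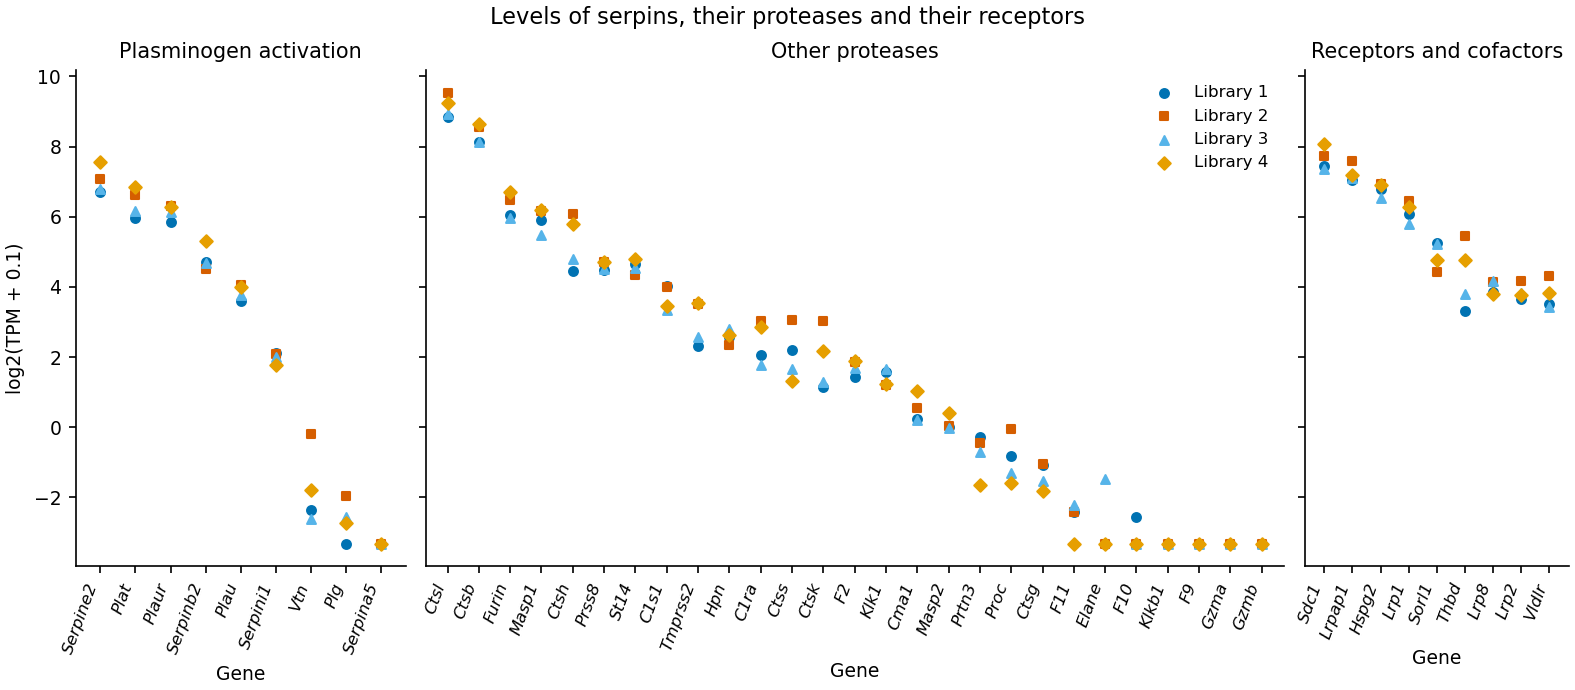
Levels on the scale log2(TPM + 0.1) of genes of plasminogen activation, of other proteases that serpins inhibit and of receptors and cofactors, each ordered by mean. Points are the 4 libraries; Ctsl is the highest protease, while Klkb1, F9, Gzma and Gzmb are at 0 counts.

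Proteases that serpins inhibit ranged from abundant to undetected. Of 30 listed proteases, 18 were expressed and 7 were not detected, shares near those of all protein-coding rows (63.5% and 16.7%). The highest were the lysosomal cathepsins Ctsl at 460.1, 741, 491 and 607 TPM and Ctsb at 279.5, 374, 281 and 400.1 TPM, followed by Plat. Factors of clotting were low, with F9 and Klkb1 at 0 counts and F2, prothrombin, at 2.59 to 3.57 TPM. The granule proteases Gzma and Gzmb had 0 counts in all 4 libraries and Elane at most 2. Receptors and cofactors for complexes were more complete, with 10 of 11 expressed, led by Sdc1 at 165 to 270.5 TPM, Lrpap1 at 132 to 191 TPM and Hspg2 at 92.8 to 123 TPM.

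Clade B, the largest clade, held the most expressed serpins. Of its 27 genes, 12 were expressed and 9 not detected. Of all 62 serpins, 23 (37.1%) were expressed and 23 (37.1%) not detected, against 63.5% and 16.7% of all protein-coding rows. The 16 genes on chromosome 13 included 10 of the 12, whereas 2 of 11 on chromosome 1, Serpinb2 and Serpinb8, were expressed. Serpinb8, known in humans as an inhibitor of furin, stood at 1.49, 2.20, 1.96 and 3.36 TPM. On chromosome 1, Serpinb5 (maspin) had 8, 9, 6 and 8 counts, and 7 genes, among them Serpinb12, Serpinb13 and 3 of the 4 Serpinb3 copies, had 3 counts or fewer in every library.

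Serpinb6a was the highest gene of clade B and the steadiest of the abundant serpins. It is a cytosolic inhibitor whose human relative inhibits cathepsin G, and it stood at 114, 117, 114 and 136 TPM, a mean of 120.3 ± 10.51 TPM (SD, n = 4). Libraries 1 to 3 were close together and library 4 was highest. Annotated exons of Nqo2, Ripk1 and 1110046J04Rik on the opposite strand cover 14.1%, 4.46% and 10.8% of its exon bases, and their reads cannot be told apart here. Its copies Serpinb6c and Serpinb6b stood at 51.1, 43.0, 52.5 and 38.1 TPM and at 8.61, 14.02, 6.63 and 9.17 TPM. Serpinb6d had 0 counts, and Serpinb6e 0, 0, 4 and 1. Within the Serpinb6 group the first 3 genes thus differed in which library was highest.

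Of the Serpinb9 group, related to the mouse granzyme B inhibitor Serpinb9, 6 of 8 genes were expressed. Serpinb9 itself stood at 19.4, 21.4, 16.3 and 19.2 TPM, while granzyme B had no count. Serpinb9b was higher, at 30.3, 66.0, 31.0 and 41.4 TPM, and exceeded Serpinb9 by 1.56 to 3.09 times in each library. Serpinb9e stood at 6.35, 14.1, 10.2 and 10.6 TPM, Serpinb9d at 1.70, 4.26, 7.12 and 5.07, Serpinb9f at 2.18, 6.80, 3.92 and 2.86, and Serpinb9g at 1.36, 4.50, 4.02 and 4.19. Library 1 was the lowest for all 5 of these genes. Serpinb9c had 16, 51, 44 and 34 counts, and missed the threshold of 1 TPM through library 1 alone, where it stood at 0.774 TPM.

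Close copies limit the lower members of this group. Of the 150-base windows of Serpinb9f, 61.4% occur in no other gene, of Serpinb9g 69.1% and of Serpinb9h 41.2%, against 98.0% of Serpinb9e and all of those of Serpinb9 and Serpinb9b. Serpinb9h had 0, 2, 0 and 2 counts. The levels of Serpinb9f, Serpinb9g and Serpinb9h are therefore uncertain. Serpinb1a, which inhibits neutrophil elastase, was the only expressed gene of its group, at 24.3, 15.3, 19.6 and 33.6 TPM, with Serpinb1b at 0.102 to 0.603 TPM and Serpinb1c at 0.194 TPM on average. Of 8 leukocyte markers 2 were expressed, Cd68 and Csf1r, and Ptprc stood at 0.0416 to 0.237 TPM.

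The remaining genes of the family were scarce. Serpina3g, known in the mouse as an intracellular inhibitor of cathepsins, stood at 6.90, 10.6, 6.46 and 10.04 TPM, and Serpina3i at 2.18, 2.97, 1.60 and 2.03. Serpina3f had 11, 16, 2 and 34 counts and Serpina3c 1, 10, 1 and 2. Serpina12, vaspin, had 4 counts in library 2 alone, Serpine3 at most 2 counts (24.8% of its exon bases are shared with Ints6 on the opposite strand), and Serpini2, a pancreatic serpin, none.

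Many of the more abundant serpins differed between cultures. Of 24 serpins with a mean of 1 CPM or more, 13 (54.2%) were at least 2 times as high in their highest library as in their lowest, against 12.4% of all protein-coding rows at that level. The median of this ratio was 2.04 over the serpins and 1.32 over all protein-coding rows. The count was 7 of 24 without library 1 and 7 of 23 without library 2, against 8.26% and 7.19% of all protein-coding rows. It was 9 of 23 without library 3 and 9 of 23 without library 4, against 9.86% and 10.4%. At a mean of 5 CPM or more it was 7 of 16, against 6.55% of all protein-coding rows. The 13 genes were Serpinh1, Serpina3m, Serpina3k, Serpinf1, Serpinb1a, Serpinb6b, Serpinb8, Serpinb9b, Serpinb9c, Serpinb9d, Serpinb9e, Serpinb9f and Serpinb9g. The Serpinb9 genes among them are copies of 1 group. For Serpinb9c, Serpinb9f and Serpinb9g, 86.4%, 61.4% and 69.1% of the 150-base windows occur in no other gene.

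Counting error adds to such ratios at low levels, so the spread was also taken from edgeR, which separates a coefficient of variation between cultures from counting error. Of 25 serpins in the fit, 17 (68.0%) lay above the trend for genes of their abundance, against 26.9% of protein-coding rows. The median coefficient was 0.264 over these serpins and 0.161 over all protein-coding rows in the fit. Serpinh1 had 0.322 against a trend of 0.134, Serpina3n 0.215 against 0.134, Serpina3m 0.280 against 0.179 and Serpinb9b 0.270 against 0.159. The other 8 lay below the trend: Serpinb6a, Serpinb6c, Serpinb9, Serpini1, Serpina3g, Serpina3i, Serpina3k and Serpina7. Serpina3k, at 0.304 against 0.324, is also among the 13 genes above. These are descriptions without a test, since the series has no second group.

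**Figure D4:**
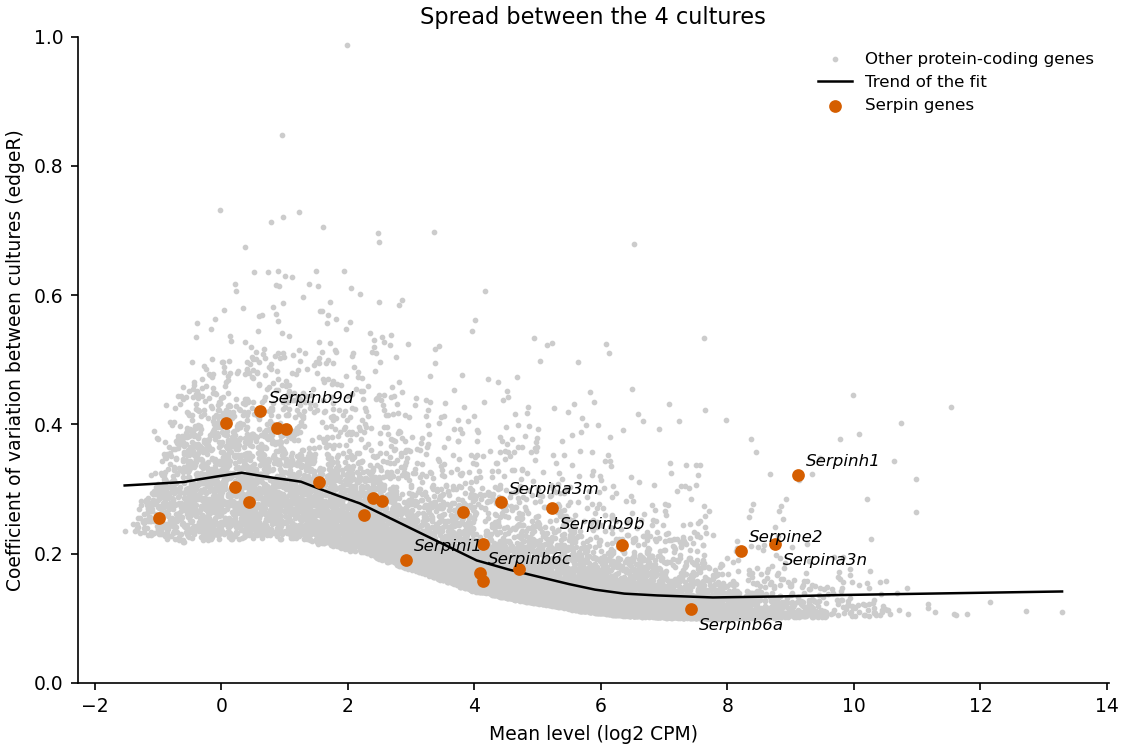
Coefficient of variation between the 4 cultures from edgeR against mean level in log2 CPM, for protein-coding genes (grey), serpins (orange) and the fitted trend (line). Serpinh1 stands at 0.322, above the trend of 0.134, while Serpinb6a stands at 0.115, below its trend.

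The serpins did not share a single order of the libraries. Library 2 was highest for 9 of the 24 genes (37.5%), against 32.5% of protein-coding rows, and library 4 for another 9, against 22.6%. Library 1 was highest for 3, against 27.0%, and library 3 for 3, against 17.9%. Library 1 was lowest for 10 of 24, against 32.7%, and library 3 for 10, against 21.9%. Library 2 was lowest for 2, against 29.1%, and library 4 for 2, against 16.2%. Serpinh1 was high where parietal endoderm, hepatocyte and fibroblast markers were high and pluripotency markers low, the last summing to 7078, 3763, 6316 and 4785 TPM. Serpinb6c had another order, with library 3 highest and library 4 lowest. What the makeup of the cultures contributes to any of these orders was not tested.

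**Figure D5:**
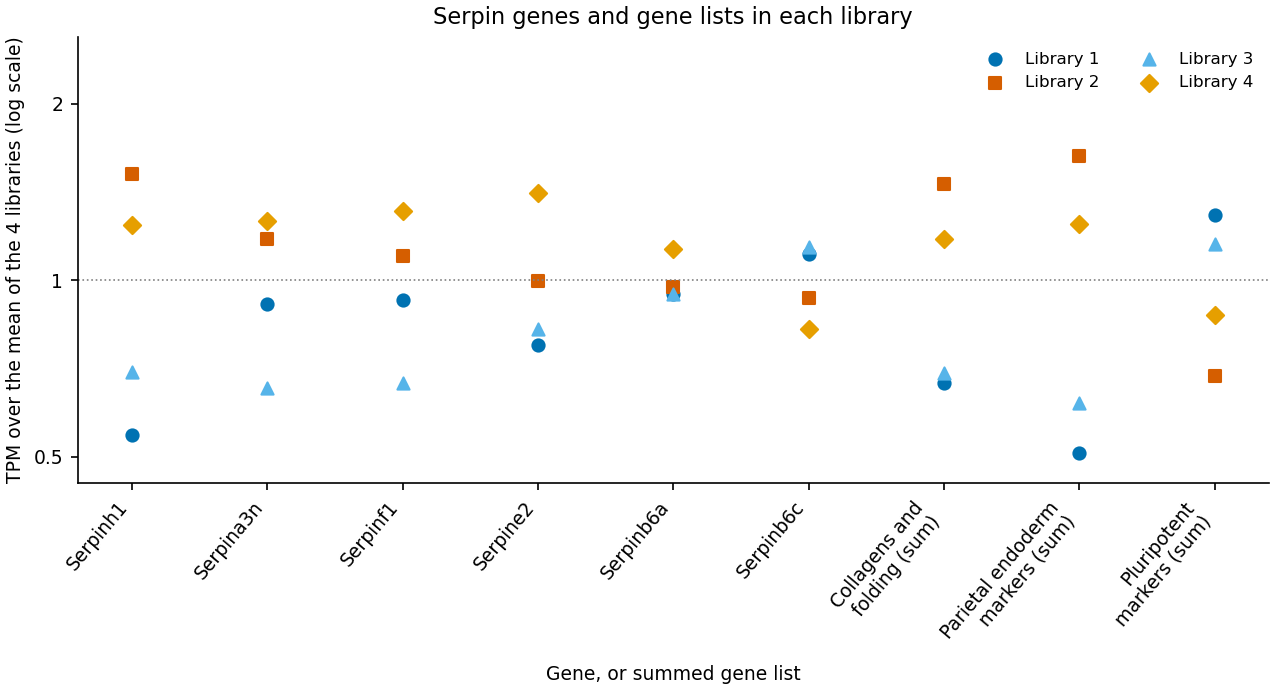
TPM of 6 serpins and of 3 summed gene lists in each library over the mean of the 4 libraries, on a log axis. Points are libraries; Serpinh1 and the collagen and parietal endoderm lists are above their mean in libraries 2 and 4 and below it in libraries 1 and 3, and the pluripotency list is the other way round.

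Promoters of expressed serpins held few CpG dinucleotides. In the 300 bases around the start, the 18 expressed serpins with a sequence had a median of 4 CpG, with a range of 0 to 41, and the 20 undetected ones a median of 3. Over all protein-coding rows with a sequence the medians were 22 for expressed and 2 for undetected genes. Serpina3n, at 792 TPM, held 3. The 5 expressed serpins with 10 or more, a limit set after the values were seen, were Serpine2, Serpinb6a, Serpinh1, Serpini1 and Serpinb6c, at 41, 25, 16, 15 and 10. They are 27.8% of the expressed serpins with a sequence, against 86.3% of expressed protein-coding rows and 45.8% of all genes in the table. The 250 bases before the start of 3 genes are printed to show this range, with CpG in capitals: Serpine2 (chr1:79858666-79858915), Serpinh1 (chr7:99353240-99353489) and Serpina1b, with 4 counts at most (chr12:103738190-103738439), all on the - strand of GRCm38.p6, from RefSeq.
Serpine2: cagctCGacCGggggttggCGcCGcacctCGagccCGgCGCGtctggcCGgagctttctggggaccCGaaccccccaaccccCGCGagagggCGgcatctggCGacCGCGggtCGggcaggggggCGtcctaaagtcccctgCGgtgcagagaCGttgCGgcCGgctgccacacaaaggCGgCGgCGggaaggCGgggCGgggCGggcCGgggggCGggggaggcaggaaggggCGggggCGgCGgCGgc
Serpinh1: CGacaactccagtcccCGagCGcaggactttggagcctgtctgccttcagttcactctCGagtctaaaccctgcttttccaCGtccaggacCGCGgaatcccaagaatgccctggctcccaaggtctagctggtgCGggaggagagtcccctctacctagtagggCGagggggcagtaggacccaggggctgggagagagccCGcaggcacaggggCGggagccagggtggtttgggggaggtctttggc
Serpina1b: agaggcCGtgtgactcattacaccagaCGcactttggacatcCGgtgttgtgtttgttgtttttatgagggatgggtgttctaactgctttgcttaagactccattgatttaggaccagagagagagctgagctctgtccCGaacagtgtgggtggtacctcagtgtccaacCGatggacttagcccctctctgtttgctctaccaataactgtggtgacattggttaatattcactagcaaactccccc
These bases hold 34, 11 and 5 CpG. The heat shock element, in the form of 3 alternating units on either strand, was found in 0.662% of all 27025 genes and in none of the 53 serpins with a sequence. TATAAA on either strand was found in 15 of the 53 (28.3%), against 15.7% of all genes. Of those 15, 2 were expressed and 8 not detected, beside 18 and 20 of the 53. All 4 copies of the Serpinb3 group are among the 15. A link between these letters and the level was not tested.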

How the data were processed

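Polyadenylated RNA of 4 cultures was made into libraries without strand information and sequenced from both ends, per the labels' protocols. The authors deposited raw, unnormalized counts for each gene. Per the submitters' processing notes, STAR, featureCounts and GRCm39 were used; no source used here gives their versions, the annotation or how pairs and multi-mapping reads were counted. Even numbers made up 60.0% to 62.6% of the counts between 1 and 8.

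From the counts, TPM was computed with union-of-exon lengths of GENCODE M21, which is built on GRCm38; 48748 of 78028 rows matched it (48148 by symbol, 5 by gene ID, 595 by another symbol) and held 98.7% to 98.9% of the counts. Gene types and order came from it too, so 2 rows that fit the symbol pattern (Serpina3h and Serpinb10) were left out as pseudogenes. Expressed means 1 TPM or more in every library, and not detected 3 counts or fewer in every library. Ratios between libraries used CPM with TMM factors, over genes with a mean of 1 CPM or more. The spread was estimated with edgeR 4.0.16 (filterByExpr, estimateDisp with an intercept) on 17398 genes and tested on simulated data. DESeq2 1.42.0 gave alternative size factors. Limits for counts of 0 cover counting error only. Promoter alignments were global (Biopython 1.88). Python 3.11.15 and R 4.3.3 were used.

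The 62 members, the gene lists and the alternatives were chosen with earlier results of these data known. Genes named are the expressed serpins, the highest of each clade, the liver-secreted list and the highest 3 of other lists; further genes, the gene pairs, motifs, promoters shown and the CpG limit were chosen after their values were seen. Values of 1 expressed serpin are in the totals and are not reported here. With 1 group, no test between groups was made.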

Additional observations from a re-analysis of the deposited data

Results flagged for a closer look

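Of 27 values examined for a library far from the other 3 (gap over range above Dixon's 95% critical value), 2 stood out; chance alone gives about 1 in 20. Serpinb6a was at 136 TPM in library 4, against 114 to 117 TPM in the others. Serpinb9g was at 1.36 TPM in library 1, against 4.02 to 4.50 TPM in the others, on 27 counts and with 69.1% of its 150-base windows unique. Among rows outside the family, Serpina3h, annotated as a transcribed pseudogene, had 39, 55, 43 and 55 counts, a mean of 3.48 TPM.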

How the results depend on the processing

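The number of expressed serpins was 23, and 18 to 24 with thresholds of 0.5 and 2 TPM and of 1 CPM. Of all protein-coding rows, 59.2% to 67.5% were expressed at these thresholds. The number was 23 to 24 when each library was left out in turn, against 63.9% to 64.2% of all protein-coding rows. The number not detected was 23, became 16 at 0 counts and 28 at 6 counts or fewer, and was 23 to 29 without single libraries. The shares of all protein-coding rows at these 3 settings were 12.2%, 20.8% and 17.3% to 17.8%. The 13 serpins that differed 2 times or more were 13 with DESeq2 size factors and 11 with library totals. The shares of all protein-coding rows were 12.4% and 12.1%. The count became 24 of 62 with no filter on low counts (20.4% of all protein-coding rows) and 7 of 16 at a mean of 5 CPM. Without single libraries it was 7 to 9, and all of these were among the 13. The shares of all protein-coding rows were then 7.19% to 10.4%. Serpins above the edgeR trend were 17 of 25, 24 of 46 without a filter, and 13 to 16 of 25 or 26 without single libraries. The shares of protein-coding rows above the trend were 26.9%, 28.2% and 26.1% to 27.1%. The family's share was 0.193% of counts and 0.256% of summed TPM, which weights short genes more, and 0.180% to 0.207% without single libraries. Of 23 ranks within the family, 15 moved by more than their spread between libraries with CPM in place of TPM, by at most 5 places; Serpinh1 and Serpina3n stayed first and second. No paired analysis was possible because the libraries form 1 group. Serpins with counts near 3 are limited by depth.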
